A study of Mus musculus with 15 samples.

Results

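The 37 genes described here are 16 claudins and 21 other genes of epithelial junctions, measured in mouse kidney with and without the transcription factor gene Grhl1. They were listed by role, and each was followed through the probe set annotated to that gene alone. Cldn19, Cdh1 and Cdh2 had 2 such probe sets, and the one with the higher mean over the samples was used. All 37 of 37 genes were measured, among 22180 genes carried by 23521 probe sets with 1 gene symbol. The samples were total RNA of kidneys from 7 Grhl1+/+ (wild-type) mice and 8 Grhl1-/- (knockout) mice, each aged about 6 months, on 1-colour arrays with biotin-labelled target. No treatment was given in the labels. The labels and design text used here do not state how the Grhl1 allele was made, the strain, sex or litters of the mice, or the array batches. Every level below is a log2 array signal after RMA, so a difference of 1 is a doubling of the signal, and differences are knockout minus wild type unless another pair is named.

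Claudins are membrane proteins that form the strands of the tight junction, and each segment of the nephron carries its own set, which decides whether cations, anions or water pass between the cells. Occludin, tricellulin and their relatives sit in the same strands, the zonula occludens proteins and cingulin bind them from the cytoplasm, and cadherins with their catenins form the adherens junction beneath. Grainyhead-like factors, of which Grhl1 is a member beside Grhl2 and Grhl3, activate junction genes in several epithelia, and claudins and E-cadherin are among the targets described for Grhl2.

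The targeted gene itself read below the array medians (5.51 to 5.59) in every sample. Grhl1 read 4.96 at the lowest, 5.05 at the median and 5.25 at the highest wild-type mouse, and 4.40, 4.73 and 4.92 in the knockouts. The genotypes did not overlap, and the difference was -0.38 (SE 0.07, exact permutation p = 0.000311, two-sided), which did not pass the adjustment over all probe sets in limma (adjusted p = 0.113). Whether the probe set lies in the deleted part of the gene was not given. Grhl2 differed by 0.02 (adjusted p = 0.998) and Grhl3 by 0.13 (adjusted p = 0.973) in the same fit. Over all 23521 probe sets limma called 3 at an adjusted p under 0.05, which is 0.0128%, with 0.00425% higher and 0.0085% lower in the knockouts. Proximal tubule markers averaged 12.28 to 12.58 in the 15 samples, in keeping with the labelled tissue. Transcripts of liver were present in 3 samples and those of adrenal cortex in 6 samples (2 wild type and 4 knockout). In bulk tissue, fewer cells of a type and less RNA per cell cannot be told apart.

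The DNA motif bound by grainyhead-like factors, AACCGGTT, was searched in both strands of the members' promoters, taken from RefSeq (assembly GRCm38.p6) as the 250 bases before to 50 bases after each gene's start. Of the 37 members 28 matched at least 1 promoter, 42 promoters in all. None of the 42 held AACCGGTT, which occurred in 48 of all 32851 promoters (0.146%). With any base at the fourth position, AACNGGTT, the motif occurred in 3 of 42 member promoters (7.14%) and in 686 of all promoters (2.09%). Every AACCGGTT is also an AACNGGTT. The 3 promoters are shown because they are the only member promoters with this match. They are written 5′ to 3′ on the gene's strand with the match in capitals, and the Rab25 match lies on the opposite strand, so that its reverse complement is printed.
Rab25: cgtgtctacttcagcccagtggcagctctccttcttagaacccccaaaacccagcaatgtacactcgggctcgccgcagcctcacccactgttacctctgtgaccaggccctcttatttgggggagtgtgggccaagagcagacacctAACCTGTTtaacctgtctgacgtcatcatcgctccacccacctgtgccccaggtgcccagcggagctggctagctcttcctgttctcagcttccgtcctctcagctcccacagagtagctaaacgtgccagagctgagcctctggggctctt
Cgn: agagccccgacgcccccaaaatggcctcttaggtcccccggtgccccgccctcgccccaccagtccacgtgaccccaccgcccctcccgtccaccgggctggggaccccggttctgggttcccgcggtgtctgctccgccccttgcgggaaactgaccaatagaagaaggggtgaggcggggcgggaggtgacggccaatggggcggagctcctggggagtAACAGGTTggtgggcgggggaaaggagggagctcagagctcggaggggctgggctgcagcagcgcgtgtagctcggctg
Cldn5: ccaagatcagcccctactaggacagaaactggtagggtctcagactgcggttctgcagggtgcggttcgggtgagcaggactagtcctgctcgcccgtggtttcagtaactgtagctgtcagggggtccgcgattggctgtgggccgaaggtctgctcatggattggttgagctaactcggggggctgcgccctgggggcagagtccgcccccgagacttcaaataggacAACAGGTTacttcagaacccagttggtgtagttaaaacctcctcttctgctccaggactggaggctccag
The Rab25 promoter is chr3:88548230-88548529 on the minus strand, and its match begins 102 bases before the gene's start. That of Cgn is chr3:94786433-94786732 on the minus strand, with the match 29 bases before the start. That of Cldn5 is chr16:18776597-18776896 on the plus strand, with the match 20 bases before the start. A match describes these letters and is not evidence of binding. By genotype, Rab25 differed by 0.05 (SE 0.14), Cgn by -0.02 (SE 0.10) and Cldn5 by -0.03 (SE 0.11), none of which passed the test.

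No junction gene was called between the genotypes. None of the 37 members passed an adjusted p under 0.05 in limma, where the smallest was 0.727, for Ocln. At an unadjusted p under 0.05 limma counted 1 member of 37 (2.70%), against 5.55% of all probe sets (3.49% higher and 2.06% lower). That member was Ocln, which was higher in the knockouts. The exact rank-sum test gave 0 members after adjustment. At an unadjusted p under 0.05 it gave 2 of 37 members, against 1199 of all 23521 probe sets. Of the 37 differences 27 lay above 0 (73.0%) and 10 below, against 54.6% above 0 over all probe sets. Their median was 0.04, against 0.0083 over all probe sets. With single mice left out the median ran from 0.022 (without wild-type mouse 1) to 0.083 (without wild-type mouse 6) and the count above 0 from 21 (without wild-type mouse 3) to 31 (without wild-type mouse 6 or knockout mouse 12). In the 5 samples without Y-linked transcripts, described below, the median was -0.014, with 17 above 0. The 37 differences ran from -0.14 (Cldn23) to 0.20 (Cldn1). No member's genotypes were without overlap, which held for 0.123% of all probe sets.

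The intervals show what sizes these 15 samples leave possible. The 95% interval of the difference held 0 for 36 members, lay within 0.5 log2 units of 0 for 35 and within 0.3 for 26. Its half-width was 0.081 at the narrowest, 0.160 at the median and 1.03 at the widest, which was that of Cdh6 (-0.97 to 1.09). The median SD of a member over the 15 samples was 0.148, near the 0.154 of all probe sets. 2 members, Cldn14 and Cldn6, lay among the dimmest 40% of probe sets.

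**Figure D1:**
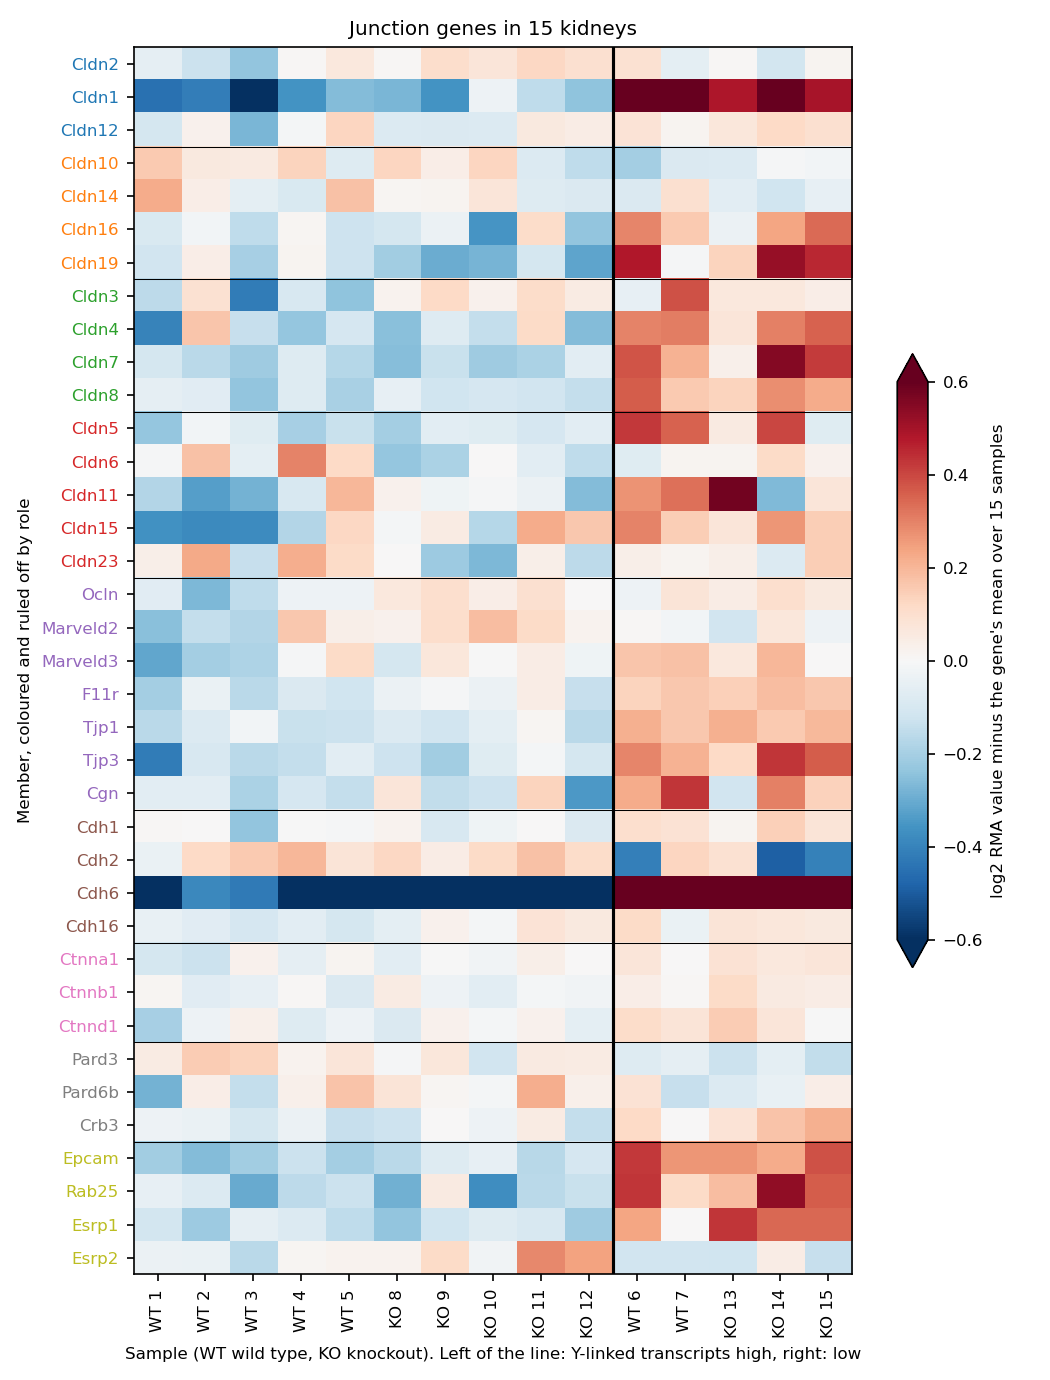
Each row is a member, grouped by role, and each column a mouse. Columns left of the line are samples with Y-linked transcripts, described below, and columns right of it samples without them. Wild types stand before knockouts on each side. Colour gives the log2 signal minus the member's mean over the 15 samples. The strongest colours are those of Cdh6 and Cldn1, which were high in wild-type mice 6 and 7 and in knockout mice 13, 14 and 15.

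**Figure D2:**
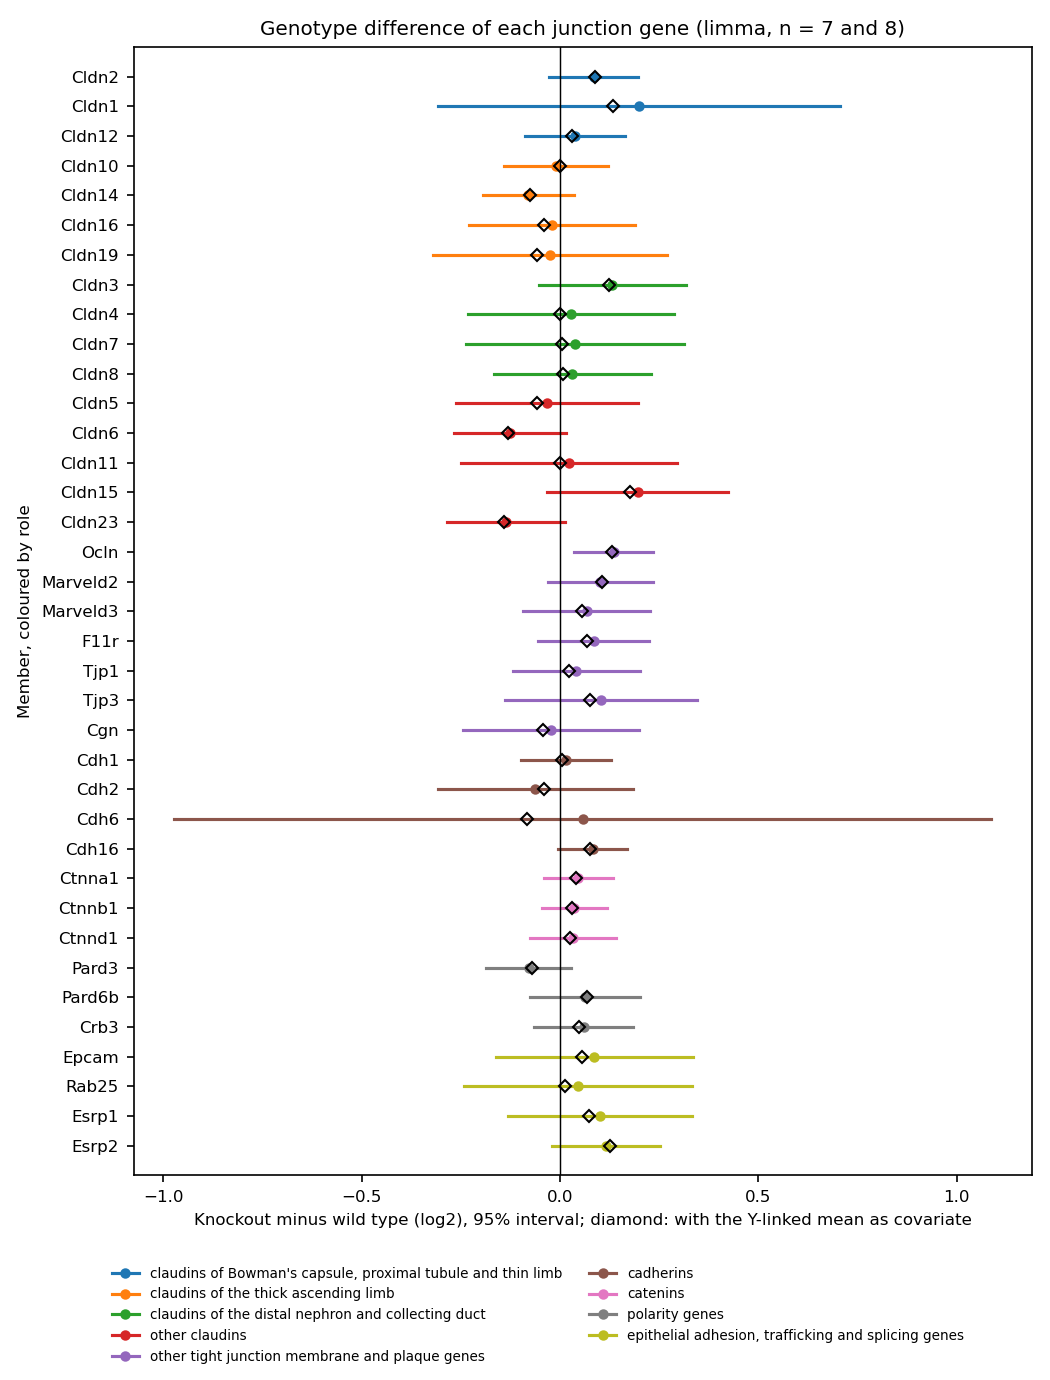
Points give knockout minus wild type on the log2 scale for each member and bars its 95% interval from limma (7 wild-type and 8 knockout mice). The interval of Ocln, 0.04 to 0.23, is the only one of the 37 that does not hold 0.

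Among the claudins of Bowman's capsule, proximal tubule and thin limb, Cldn2, the paracellular cation and water pore of the proximal tubule, had the smallest p. It read 7.14 at the lowest, 7.32 at the median and 7.47 at the highest wild-type mouse, and 7.26, 7.42 and 7.50 in the knockouts. The groups overlapped over most of their range, and the difference of 0.08 (SE 0.05) missed the threshold (exact permutation p = 0.109; limma adjusted p = 0.973). Cldn1, a sealing claudin that marks the parietal cells of Bowman's capsule, differed by 0.20 (SE 0.24) and Cldn12 by 0.04 (SE 0.06). All 3 differences lay above 0.

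All 4 claudins of the thick ascending limb had differences below 0 in the probe sets used, and none passed the test. Cldn14, which blocks the cation pore of this segment, read 4.59, 4.72 and 4.91 at the lowest, median and highest wild-type mouse and 4.56, 4.63 and 4.75 in the knockouts. The groups overlapped, and the difference was -0.08 (SE 0.05, exact permutation p = 0.142; limma adjusted p = 0.973). Cldn16 and Cldn19, which together form the pore through which magnesium and calcium are taken up, differed by -0.02 (SE 0.10) and -0.03 (SE 0.14). The second probe set of Cldn19 was dimmer and differed by 0.02 (SE 0.09). Cldn10, which makes the sodium pore of the segment, differed by -0.0095 (SE 0.06).

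The 4 claudins of the distal nephron and collecting duct all had differences above 0, of 0.03 to 0.13. Cldn3, a sealing claudin, read 7.42, 7.74 and 8.22 at the lowest, median and highest wild-type mouse and 7.86, 7.90 and 7.96 in the knockouts. The knockouts lay inside the wild-type range and were closer together (SD 0.036, n = 8, against 0.255, n = 7). The lowest and highest wild types were mice 3 and 7, the 2 wild types with liver transcripts. The other wild types read 7.60 to 7.93, and knockout mouse 10, which also held liver transcripts, read 7.86. The part of liver transcripts in this spread was not tested. The means differed by 0.13 (SE 0.09, exact permutation p = 0.179, limma adjusted p = 0.973). Cldn4 and Cldn8, partners in the chloride pathway of the collecting duct, differed by 0.03 (SE 0.12) and 0.03 (SE 0.09). Cldn7 differed by 0.04 (SE 0.13).

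Of the 5 other claudins, 2 had differences above 0 and 3 below. Cldn23 read 5.41, 5.59 and 5.78 at the lowest, median and highest wild-type mouse and 5.28, 5.51 and 5.70 in the knockouts. Its difference of -0.14 (SE 0.07) was the lowest of the list, with groups that overlapped (exact permutation p = 0.0794; limma adjusted p = 0.937). Cldn6, best known from embryonic epithelium, read 5.21, 5.29 and 5.57 in the wild types and 5.05, 5.25 and 5.39 in the knockouts, a difference of -0.13 (SE 0.07, exact permutation p = 0.0808). Cldn15, a cation pore best known from the intestine, differed by 0.20 (SE 0.11, exact permutation p = 0.114). Cldn5, the claudin of endothelium, differed by -0.03 (SE 0.11), and Cldn11, known from myelin and Sertoli cells, by 0.02 (SE 0.13).

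Ocln, which encodes occludin, a membrane protein of the tight junction strands, was the member with the smallest p. Its levels in wild-type mice 1 to 7 were 8.88, 8.68, 8.80, 8.92, 8.92, 8.92 and 9.03. In knockout mice 8 to 15 they were 9.02, 9.05, 8.99, 9.05, 8.95, 8.995, 9.05 and 9.01. Every knockout lay above 6 of the 7 wild types, and wild-type mouse 7 lay inside the knockout range. The means were 8.88 ± 0.11 (SD, n = 7) and 9.02 ± 0.035 (SD, n = 8), a difference of 0.14 (SE 0.05, 95% interval 0.04 to 0.23). Its exact permutation p was 0.00249 (two-sided, over 6435 splits), its unadjusted limma p 0.0108 and its adjusted p 0.727. The lowest wild-type values came from mice 2 and 3, and both of those samples held adrenal cortex transcripts. Knockout mice 10 to 13, which held them too, read 8.99, 9.05, 8.95 and 8.995. The part of adrenal cortex transcripts in these values was not tested. Without the 6 samples that held such transcripts (2 wild type and 4 knockout) the difference was 0.10. Limma, fitted across all probe sets, then gave an unadjusted p of 0.100, above the threshold. Without wild-type mouse 2 alone the difference was also 0.10.

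Of the 7 tight junction membrane and plaque genes other than claudins, 6 had differences above 0 and Cgn was below. Marveld2, which encodes tricellulin, the protein of corners where 3 cells meet, differed by 0.10 (SE 0.06, exact permutation p = 0.120). Its relative Marveld3 differed by 0.07 (SE 0.08) and the adhesion molecule F11r, also called JAM-A, by 0.08 (SE 0.07). The scaffolds Tjp1 (ZO-1) and Tjp3 (ZO-3) differed by 0.04 (SE 0.08) and 0.10 (SE 0.11). None of these passed the test before or after adjustment.

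Among the cadherins, Cdh16, the kidney-specific cadherin, varied little. It read 11.78, 11.82 and 12.004 at the lowest, median and highest wild-type mouse and 11.83, 11.95 and 11.97 in the knockouts. The groups overlapped, and the difference was 0.08 (SE 0.04, exact permutation p = 0.0300; limma adjusted p = 0.933). Cdh1 (E-cadherin) differed by 0.01 (SE 0.05) and Cdh2 (N-cadherin, in kidney found in the proximal tubule) by -0.06 (SE 0.12). The second probe set of Cdh1 was dimmer and differed by -0.12. Cdh6, a cadherin of the proximal tubule lineage, differed by 0.06 with an SE of 0.49.

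The catenins, which tie cadherins to the actin cytoskeleton, varied little over the samples. Ctnna1 read 9.91, 10.03 and 10.10 at the lowest, median and highest wild-type mouse and 9.97, 10.05 and 10.12 in the knockouts. Its difference was 0.05 (SE 0.04, exact permutation p = 0.176; limma adjusted p = 0.984). Ctnnb1 (beta-catenin) differed by 0.04 (SE 0.04) and Ctnnd1 (p120-catenin) by 0.03 (SE 0.05). Their SD over the 15 samples put Ctnnb1 at the 2.29 percentile of all probe sets, Ctnna1 at 4.89 and Ctnnd1 at 13.1.

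Of the polarity genes, Pard3, the scaffold of the apical PAR complex, read 7.83, 7.96 and 8.06 in the wild types and 7.76, 7.88 and 7.98 in the knockouts. The groups overlapped, with a difference of -0.08 (SE 0.05, exact permutation p = 0.105; limma adjusted p = 0.973). Pard6b and Crb3, which act with it at the apical border, each differed by 0.06 (SE 0.07 and 0.06). Of the epithelial adhesion, trafficking and splicing genes, Esrp2, a splicing regulator of epithelia, had the smallest p. It read 8.71, 8.83 and 8.89 in the wild types and 8.73, 8.90 and 9.15 in the knockouts, a difference of 0.11 (SE 0.06, exact permutation p = 0.0962; limma adjusted p = 0.950). Its relative Esrp1 differed by 0.10 (SE 0.11), the adhesion molecule Epcam by 0.09 (SE 0.12) and Rab25, a small GTPase of apical recycling, by 0.05 (SE 0.14).

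**Figure D3:**
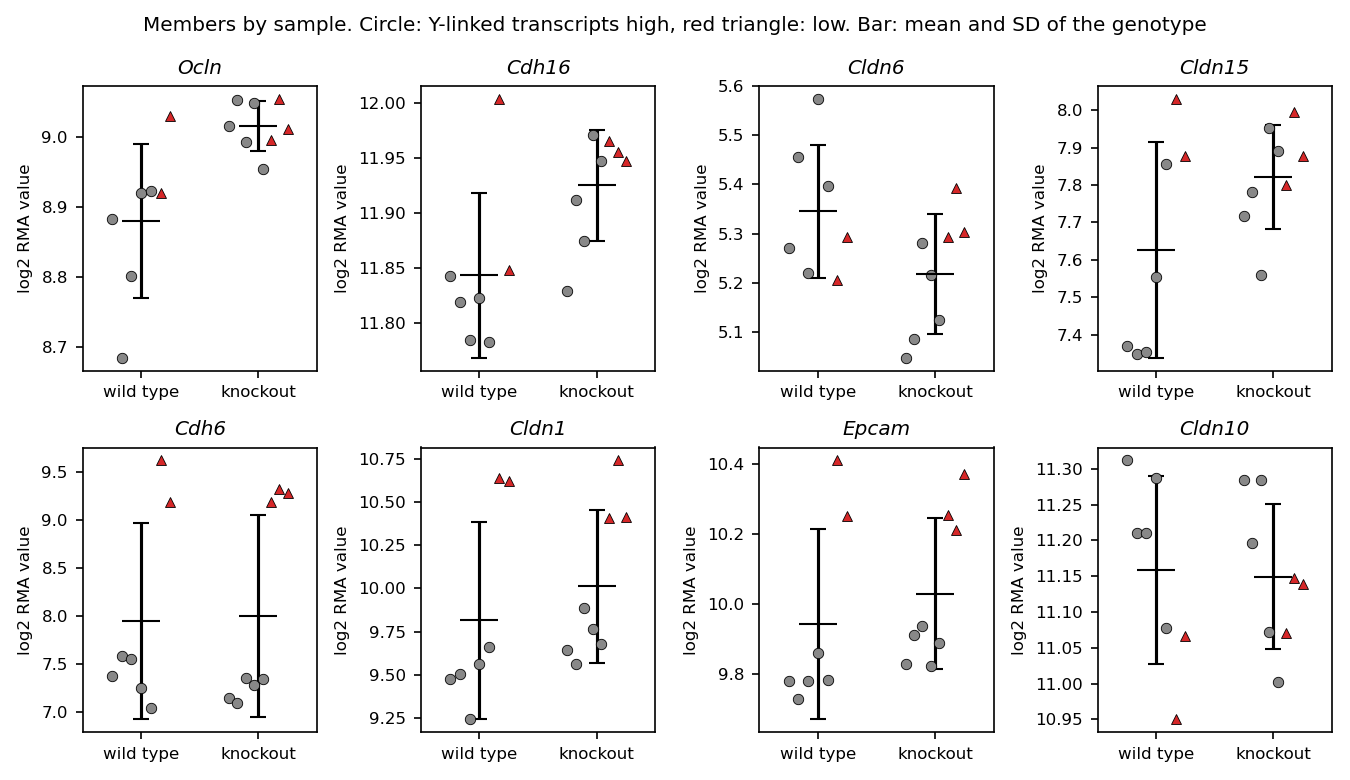
Each point is the log2 signal of 1 mouse, by genotype, for 8 members, with symbols for samples with and without Y-linked transcripts and lines for the genotype means. Cdh6, Cldn1 and Epcam form 2 separate levels within each genotype, while the Ocln values of the knockouts lie between 8.95 and 9.05.

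The larger differences among the junction genes followed another split of the samples. Of the 15 samples, 10 (5 wild type, 5 knockout) had Y-linked transcripts, with a mean over 3 Y-linked genes of 8.37 to 8.68, and 5 (wild-type mice 6 and 7, knockout mice 13, 14 and 15) had a mean of 3.96 to 4.26. Xist read 3.60 to 4.29 in the former and 11.41 to 11.57 in the latter. The labels gave no sex and the split came from the data, so its differences are described without a test. For 10 of the 37 members every sample without Y-linked transcripts lay above every sample with them, and for none did every sample lie below. Over all probe sets 11.5% had no overlap in this split, 6.82% higher and 4.69% lower in the samples without Y-linked transcripts. Centring each array on its median left 8 of the 10 (Rab25 and Esrp1 then overlapped), against 11.2% of all probe sets. A repeated quantile normalization left 9 (Esrp1 overlapped) and added Cdh1 and Pard3. Then 11 members had no overlap, 10 of them higher, against 11.2% of all probe sets. Without the 6 samples with adrenal cortex transcripts 16 members had no overlap, 15 of them higher, against 19.5% of all probe sets. Pard3 was the member that lay lower without Y-linked transcripts in both settings.

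Cdh6 and Cldn1 differed most between these samples, and both were named for this pattern after their values had been seen. Cdh6 read 7.04, 7.31 and 7.59 at the lowest, median and highest of the 10 samples with Y-linked transcripts and 9.19, 9.28 and 9.62 in the 5 without. The gap between the classes exceeded the whole range within either. The means were 7.30 ± 0.18 (SD, n = 10) and 9.32 ± 0.18 (SD, n = 5), a 4.05-fold difference, of 2.05 on the log2 scale within wild types and 2.02 within knockouts. Cldn1 read 9.24, 9.60 and 9.89 in the 10 samples and 10.41, 10.62 and 10.74 in the 5, a 1.96-fold difference in mean (1.14 on the log2 scale within wild types, 0.81 within knockouts). Over all 15 samples the SD of Cdh6 was 1.0004, at the 99.4 percentile of all probe sets, and that of Cldn1 was 0.50, at the 98.1 percentile.

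The other 8 non-overlapping members came from the collecting duct claudins, the tight junction plaque and the epithelial adhesion genes. Epcam read 9.73, 9.83 and 9.94 at the lowest, median and highest of the 10 samples with Y-linked transcripts and 10.21, 10.25 and 10.41 in the 5 without, a 1.38-fold difference in mean. Rab25 was 1.40-fold, Cldn7 1.39-fold, Tjp3 1.34-fold and Esrp1 1.33-fold higher in the samples without them. Cldn8 was 1.27-fold, Tjp1 1.21-fold and F11r 1.18-fold higher. By role these were 2 of 4 collecting duct claudins and 3 of 7 tight junction genes other than claudins. They also held 3 of 4 epithelial adhesion, trafficking and splicing genes. The share of all probe sets was 11.5%, with 6.82% higher and 4.69% lower without Y-linked transcripts. With arrays centred on their medians Rab25 and Esrp1 overlapped, which left Epcam alone in the last role. None of the 4 thick ascending limb claudins, 5 other claudins, 3 catenins or 3 polarity genes was among the non-overlapping members before centring. With values averaged over the probe sets of a gene, Cldn19 joined them, which made 11 members, against 11.5% of all probe sets.

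Of all 37 members 29 had higher means in the samples without Y-linked transcripts, with a median difference of 0.18, against -0.01 over all probe sets. After centring each array on its median the count was 27, since Cldn6 (0.03 to -0.02) and Cldn23 (0.05 to -0.0024) turned. Cldn19, the thick ascending limb claudin with the widest difference, was 0.47 higher, with 8.55, 8.70 and 8.90 in the 10 samples and 8.86, 9.31 and 9.39 in the 5. Those ranges overlapped. The 8 members with lower means included Cdh2, at 7.79, 7.95 and 8.03 in the 10 samples and 7.34, 7.43 and 7.96 in the 5, a difference of -0.33 with overlapping ranges. Cldn10 was lower by a difference of -0.12, and Cldn2 by one of -0.02. Ocln, with 0.07, and the catenins, with 0.08 to 0.12, differed little in this split.

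Marker levels of nephron segments and other cell types moved with the same split. The mean over proximal tubule markers was 12.47 to 12.58 in the 10 samples with Y-linked transcripts and 12.28 to 12.40 in the 5 without. That difference came mainly from Slc22a6 (-0.88), while Slc34a1 (-0.08) and Lrp2 (-0.02) differed little and Slc5a2 was higher without Y-linked transcripts (0.21). The mean over thick ascending limb markers was 11.70 to 11.81 and 11.96 to 12.08, and that over distal convoluted tubule markers 9.45 to 9.62 and 9.70 to 9.96. Intercalated cell markers averaged 9.003 to 9.36 and 9.39 to 9.57, and podocyte markers 8.40 to 8.65 and 8.81 to 9.08. Principal cell markers overlapped, at 9.83 to 10.16 and 10.03 to 10.33, as did those of urothelium, at 6.53 to 7.11 and 6.72 to 7.30. Mesenchyme markers averaged 8.98 to 9.14 and 9.28 to 9.47, and endothelium markers 9.68 to 9.853 and 9.856 to 9.98. Fat markers overlapped, at 6.93 to 8.13 and 7.72 to 8.63, as did leukocyte markers, at 6.40 to 7.23 and 6.73 to 7.59. The part of these cell types in the levels of the junction genes was not tested.

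**Figure D4:**
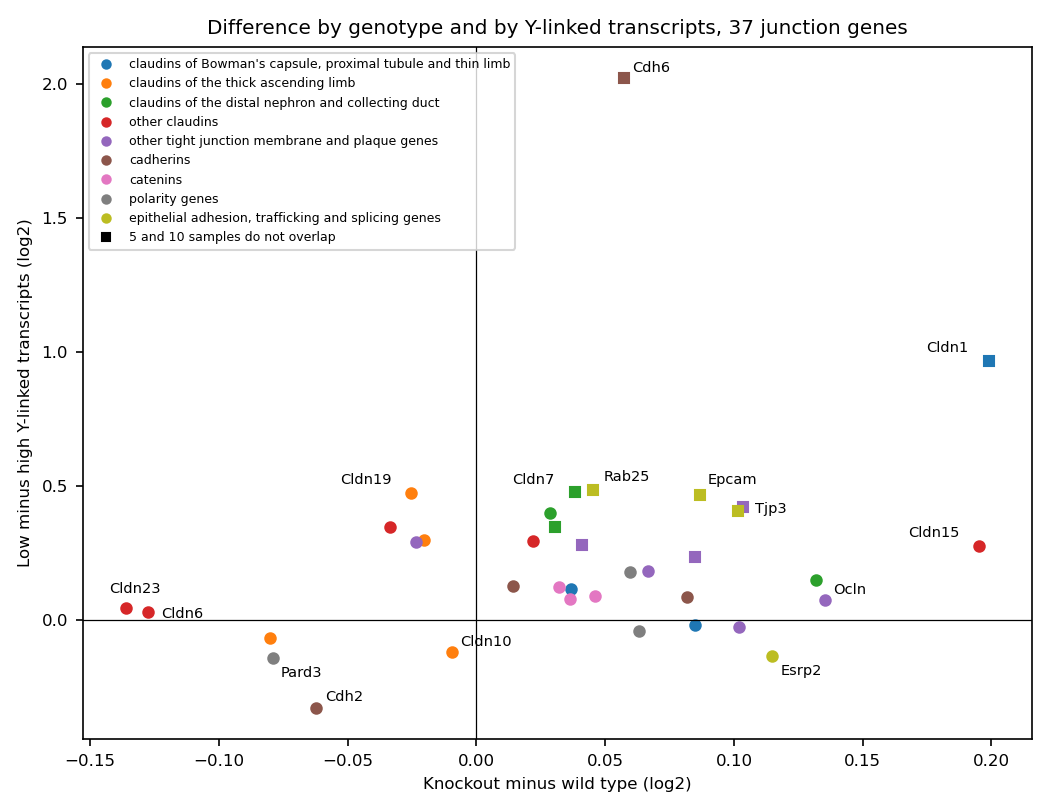
Each point is a member, with knockout minus wild type on the x axis and samples without minus samples with Y-linked transcripts on the y axis, both in log2 units. Cdh6 lies at 2.02 and Cldn1 at 0.97 on the y axis, while all 37 members lie between -0.14 and 0.20 on the x axis.

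Within the 10 samples with Y-linked transcripts, 5 of each genotype, more members had a small unadjusted p. In limma 9 of 37 members had an unadjusted p under 0.05, against 7.72% of all probe sets, and none passed adjustment (smallest adjusted p = 0.514). Cldn15 (0.28), Cldn3 (0.23), Cldn1 (0.22), Ocln (0.17), Esrp2 (0.17) and Cldn2 (0.15) were above 0, while Cldn6 (-0.23), Cldn23 (-0.21) and Cldn19 (-0.16) were below. Differences in the 5 samples without Y-linked transcripts (2 wild type, 3 knockout) came from 1 limma model of all 15 samples. Their SEs therefore draw on the spread of all 15 samples, not of these 5 alone. In these 5 samples 7 of the 9 members had the opposite sign. These were Cldn15 at -0.06 (SE 0.15), Cldn3 at -0.11 (SE 0.13), Cldn1 at -0.11 (SE 0.13) and Cldn2 at -0.04 (SE 0.08). The others were Cldn6 at 0.08 (SE 0.10), Cldn23 at 0.0087 (SE 0.12) and Cldn19 at 0.13 (SE 0.14). Each of the 7 lay within 1 SE of 0, and the 9 had been picked by their p in the 10 samples. Ocln was the only member whose genotypes did not overlap in the 10 samples, which held for 1.73% of all probe sets. Its difference was 0.05 (SE 0.07) in the 5 samples without Y-linked transcripts, and the difference between the 2 differences had an unadjusted interaction p of 0.188 (limma adjusted p = 0.819). The interaction had an unadjusted p under 0.05 for 4 members (Cldn3, Cldn5, Cldn6, Esrp1), against 7.04% of all probe sets, and was called for none (0% of all probe sets; smallest adjusted p of a member 0.609). Adrenal cortex transcripts were present in 2 of the 5 wild types and 3 of the 5 knockouts in this set.

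Correlations between members depended on the samples used. They were computed for 27 pairs, within the claudins of a segment, among Cdh1 and the catenins, or with Grhl2. Over all 15 samples 12 of 27 pairs passed a permutation test after adjustment, but the samples form 2 clusters there, so those values are not given. Within the 10 samples with Y-linked transcripts none of the 27 passed. The pair with the highest r was Ctnna1 with Ctnnd1 (r = 0.69, Spearman correlation 0.70, permutation p = 0.0220, adjusted p = 0.366). That with the lowest was Grhl2 with Rab25 (r = -0.69, Spearman correlation -0.60, permutation p = 0.0297, adjusted p = 0.366), and without the 2 farthest samples r was -0.83. The pore partners Cldn16 and Cldn19 had r = 0.63 (Spearman correlation 0.71, permutation p = 0.0497, adjusted p = 0.366). The medians were 0.15 over pairs of thick ascending limb claudins and 0.10 over collecting duct claudins. Over all pairs among Cdh1, Ctnna1, Ctnnb1 and Ctnnd1 the median was -0.39. Over the 9 pairs of Grhl2 with a member it was -0.17.

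Other genes of the same pathways gave no call between the genotypes either. The counts below stand against 5.55% of all probe sets at an unadjusted limma p under 0.05 and 54.6% above 0. Of 23 further tight junction genes measured, 14 had differences above 0 and 9 below, and Arhgef2 (0.17, SE 0.08, limma adjusted p = 0.896) was the 1 with an unadjusted p under 0.05. Of 17 epithelial genes tied to grainyhead factors elsewhere, 13 lay above 0 and 4 below, and Krt19, a keratin of simple epithelia (0.21, SE 0.08, limma adjusted p = 0.749), was the 1 with an unadjusted p under 0.05. The 10 further claudins (3 above 0), 15 further adherens junction genes (10 above 0), 15 further polarity genes (11 above 0), 14 desmosome genes (8 above 0) and 10 genes of mesenchymal transition (4 above 0) had none. Medians over these 7 lists ran from -0.02 to 0.03, against 0.0083 over all probe sets.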

How the data were processed

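Kidney RNA of 15 mice was measured on arrays. The authors deposited log2 signals, 1 for each probe set, summarised with RMA per the submitters' processing notes. No source used here names the genome build of the array. Each array was taken as 1 mouse, since the design text counts mice. Probe sets with 1 annotated gene symbol (23521 of 41345) were fitted with limma 3.58.1 in R 4.3.3 (lmFit, eBayes, genotype as the term), with Benjamini-Hochberg adjustment over all of them and a threshold of 0.05. Exact permutation tests enumerated all 6435 assignments of the genotype labels, for which the smallest exact p is 0.000155. The limma fit was tested on simulated data, with added differences larger than the genotype difference of any member. Array medians were 5.51 to 5.59 and pairwise correlations 0.976 to 0.991. With 15 arrays, precision is set by their number.

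Every member's difference is given, with levels for those at an unadjusted p under 0.05 and the member of smallest p in each role. The members and lists were chosen with earlier results of these data known. Alternatives were trend and robust fits, array weights, covariates, other scalings, a filter on dim probe sets and left-out samples. Liver or adrenal cortex transcripts were taken as present where a sample's mean marker level exceeded the median by 1 log2 unit.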

Additional observations from a re-analysis of the deposited data

Results flagged for a closer look

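In each genotype the highest or lowest sample of every member was set against the others by Dixon's test, 74 groups in all, of which chance flags about 1 in 20. 6 stood out. In the wild types, mouse 6 read 9.34 for Cldn19 (the next highest 8.90), 12.004 for Cdh16 (next 11.85) and 7.42 for Cdh2 (the next lowest 7.79), and mouse 3 read 10.05 for Cdh1 (the next lowest 10.28). In the knockouts, mouse 14 read 7.23 for Cldn5 (next highest 6.88) and mouse 13 read 7.70 for Cldn11 (next 7.19). Wild-type mouse 6 and knockout mice 13 and 14 had no Y-linked transcripts, and wild-type mouse 3 held transcripts of liver and adrenal cortex. The part of either in these values was not tested.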

How the results depend on the processing

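None of the 37 members was called under any alternative run. The count of all probe sets called, 3, became 14 with a Y-linked covariate, 0 by the exact rank-sum test (1199 at an unadjusted p under 0.05), 1 in the samples without Y-linked transcripts (chosen after seeing the data) and 2 to 6 with single mice left out (6 without knockout mouse 8). The count of members at an unadjusted p under 0.05, 1, became 2 with trend and robust fitting, the dim filter, liver and adrenal covariates or the rank-sum test, 3 with the Y-linked covariate, 5 with array weights, 4 without samples with liver transcripts, 0 without those with adrenal cortex transcripts and 9 in samples with Y-linked transcripts. Leaving out single mice gave 1 to 4 members (4 without wild-type mouse 6). Of all 23521 probe sets 1305 had such a p in the main fit, against 1275 with trend and robust fitting. That number was 1212 with liver and adrenal covariates, 2049 with the Y-linked covariate and 1600 with array weights. It was 1283 without liver samples, 949 without adrenal samples and 1815 in samples with Y-linked transcripts. The dim filter gave 887 of 14112, the rank-sum test 1199 and single mice left out 1137 to 1521. The 10 members without overlap in the Y-linked split, against 11.5% of all probe sets, became 16 without the adrenal samples, against 19.5%. They became 14 without the liver samples, against 15.8%, and 8 with arrays centred on their medians, against 11.2%. With single mice left out they were 10 to 14, against 11.7% to 13.6% of all probe sets. The 14 came without knockout mouse 13, against 13%. These settings were chosen after seeing the data. The median difference of the members, 0.04, was -0.014 in the samples without Y-linked transcripts. The 12 correlated pairs became 0 in the samples with Y-linked transcripts. The causes were not tested.

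Of 442 member differences under 12 settings 42 changed sign. With the Y-linked covariate Cdh6 was -0.084. With liver and adrenal covariates Cldn10 was 0.00032, Cldn16 0.011, Cldn5 0.016 and Cgn 0.068. Without liver samples Cldn16 was 0.026, Cldn5 0.024, Cgn 0.036 and Cdh1 -0.0082. Without adrenal samples Cldn2 was -0.0053, Cldn12 -0.0091, Cldn10 0.053, Cldn16 0.061, Cldn19 0.067, Cldn11 -0.15 and Cgn 0.022. In samples with Y-linked transcripts Cldn7 was -0.025, Cldn5 0.029, Cgn 0.030, Cdh2 0.011, Cdh6 -0.12, Rab25 -0.038 and Esrp1 -0.024. In samples without them Cldn2 was -0.044, Cldn1 -0.11, Cldn10 0.11, Cldn19 0.13, Cldn3 -0.11, Cldn4 -0.062, Cldn8 -0.047, Cldn6 0.080, Cldn11 -0.17, Cldn15 -0.063, Cldn23 0.0087, Marveld2 -0.020, Marveld3 -0.082, Cdh1 -0.014, Cdh6 -0.14, Ctnnd1 -0.018, Pard6b -0.0011 and Epcam -0.052. Averaged over probe sets Cdh1 was -0.055. Of 555 differences with single mice left out 46 changed sign, in 14 members, whose ranges were -0.024 to 0.032 (Cdh1), -0.14 to 0.0038 (Cdh2), -0.13 to 0.34 (Cdh6), -0.068 to 0.046 (Cgn), -0.044 to 0.016 (Cldn10), -0.059 to 0.079 (Cldn11), -0.0052 to 0.061 (Cldn12), -0.070 to 0.029 (Cldn16), -0.10 to 0.052 (Cldn19), -0.036 to 0.082 (Cldn4), -0.093 to 0.034 (Cldn5), -0.038 to 0.10 (Cldn7), -0.0075 to 0.093 (Cldn8) and -0.028 to 0.12 (Rab25). The genotype differences of 11 members kept their sign in all of these settings. No paired analysis was run, because the labels give no litters or other pairing of the mice. Background signal was not analysed here, so how far dim members such as Cldn14 lay above it is unknown.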

Other observations

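Other epithelial genes also differed between the samples with and without Y-linked transcripts. The genes named here were chosen after their values were seen, and no test was run. Dsg2, a desmosomal cadherin, read 6.29 ± 0.14 (SD, n = 10) with Y-linked transcripts and 7.31 ± 0.17 (SD, n = 5) without, and 2 of 14 desmosome genes had no overlap, near the 11.5% of all probe sets (6.82% higher and 4.69% lower without Y-linked transcripts). St14, a membrane serine protease of epithelia, read 9.15 ± 0.072 and 9.82 ± 0.067, and its inhibitors Spint1 and Spint2 were 0.24 higher each in the samples without Y-linked transcripts. Grhl2 read 6.45 ± 0.12 and 6.90 ± 0.051. Of the 17 grainyhead-related epithelial genes 6 had no overlap in this split, and of the 23 further tight junction genes 11, of which 8 were higher without Y-linked transcripts, against the same 11.5%. Ildr1, a protein of tricellular junctions, was 0.48 higher there, while Igsf5, a junctional adhesion protein, differed by -0.30. The 10 further claudins gave none without overlap. Of the 10 mesenchymal transition genes 9 had higher means without Y-linked transcripts, and 3 of them (Cdh11, Vim, Zeb1) had no overlap, against 11.5% of all probe sets.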
